A study of Citrus maxima with 6 samples.

Results

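The proton pumps of pomelo pulp are described here in ripe fruits of a red-sarcocarp and a white-sarcocarp cultivar. They were taken as the genes whose annotated name refers to an H+-ATPase, a vacuolar ATPase or a subunit of its V0 or V1 sector, or an H+-pyrophosphatase. This gave 32 of the 30123 genes in the deposited table. Cg1g013420 also carries such a name but was left out by the rule that set the list. The 32 genes fall into 8 plasma membrane H+-ATPases, 5 H+-pyrophosphatases and 19 genes of the vacuolar H+-ATPase. Arabidopsis names in brackets are those of the best Arabidopsis hit that the table pairs with each gene. They show likeness to that gene and not where the pomelo protein sits in the cell. The name plasma membrane H+-ATPase thus stands for the P-type family, including the AHA10-like Cg1g013430, whose place in the cell was not measured.

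The red-sarcocarp group was Citrus maxima Merr. var. Tubtim Siam and the white-sarcocarp group was Citrus maxima (Burm.) Osbeck. Pulp of ripe fruits was sampled from each, with 3 biological repeats per cultivar made from the mixed sarcocarp of several fruits. RNA-seq of the 6 libraries gave an FPKM (fragments per kilobase of transcript and per 1000000 mapped fragments) for every gene. Since 1 cultivar stands for each pulp colour, colour and every other difference between the cultivars cannot be told apart.

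Plant cells run 3 kinds of primary proton pump. The plasma membrane H+-ATPase is a single-chain P-type pump that moves protons out of the cell and drives uptake through secondary carriers. The vacuolar H+-ATPase is a rotary complex, in which the V1 sector splits ATP and the membrane-bound V0 sector carries the protons into the vacuole or into Golgi vesicles. The H+-pyrophosphatase does similar work with pyrophosphate as its fuel. In citrus, the juice cells of the pulp hold very acid vacuoles, and their citrate store depends on pumping at the vacuolar membrane. A P-type pump of the AHA10 kind is also known from the vacuolar membrane of petunia petals, where it acidifies the vacuole.

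The calls went in different directions in the pump types. In red-sarcocarp pomelo 3 plasma membrane H+-ATPases were higher and 0 lower than in white. Of the vacuolar H+-ATPase genes 0 were higher and 3 lower, and the H+-pyrophosphatases had 1 gene in each direction. A gene was tested when its mean FPKM reached 1 in at least 1 cultivar, which 23 of the 32 pumps did. It was called higher or lower at an adjusted p of at most 0.01 in limma, fitted on log2(FPKM + 0.1) of all 14158 such genes. By this rule 8 of the 23 tested pumps were called (34.8%), with 4 higher and 4 lower, beside 27.5% of all tested genes. Higher calls made up 13.4% of all tested genes and lower calls 14.1%. The study's thresholds add a log2 fold change that must reach 2 in either direction. A single pump, higher in red, met both (4.35%), beside 6.76% of all tested genes (3.11% higher and 3.65% lower). The libraries of the cultivars did not overlap for 7 pumps with red above white and 12 with white above red. Such a separation was found in 57.7% of all tested genes. All fold changes are red over white, and on this scale they can understate the change of weakly expressed genes. Where single libraries are listed at 0, they can also be larger than the means would give. The median log2 fold change of the tested pumps was -0.12, against 0.02 over all tested genes.

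Of the 9 pumps that were not tested, 5 were listed at an FPKM of 0 in every library and 4 had low values. A listed 0 is not proof of silence, because 2154 genes of the table are at 0 in all libraries while their deposited mean normalized count is above 0. The FPKM of a library summed to between 812335 and 835575, and between 15920 and 16250 genes were above 0. FPKM carries no read number, so no depth stands behind a single value here, and its error is judged from the 3 repeats. In bulk pulp, fewer cells of a type and less RNA per cell cannot be told apart. Both cultivars were mapped to 1 genome, and genes of the same kind may share reads. How far these affect each pump was not tested.

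The summed FPKM of markers of other tissues overlapped between the cultivars, apart from seed and green tissue. The 6 seed marker genes summed to between 5.40 and 25.51 FPKM in the red libraries and between 0.09 and 0.25 in the white ones, with red replicate 3 the highest. In white, the 2 cupin genes Cg9g008230 and Cg9g008240, which carried most of the sum in red, reached at most 0.19, and the other 4 seed markers were listed at 0. The 4 markers of chloroplast-rich tissue summed to between 30.95 and 46.96 FPKM in red and between 49.99 and 64.69 in white. This rested mainly on Cg3g001930 (log2 fold change -0.87, SE 0.16, limma adjusted p = 0.00415), while 2 of the 4 overlapped. Xylem (16.15 to 25.04 against 8.20 to 19.89), phloem (19.56 to 23.0 against 20.67 to 29.34) and epidermis markers (17.01 to 19.45 against 18.08 to 55.95) overlapped in their sums. The 7 xylem genes were not uniform: Cg8g000170 carried most of the sum and was higher in every red library, whereas 4 weakly expressed ones were higher in every white library. Of these Cg4g023980 was tested and passed both thresholds (log2 fold change -3.21, SE 0.56, limma adjusted p = 0.00362).

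**Figure D1:**
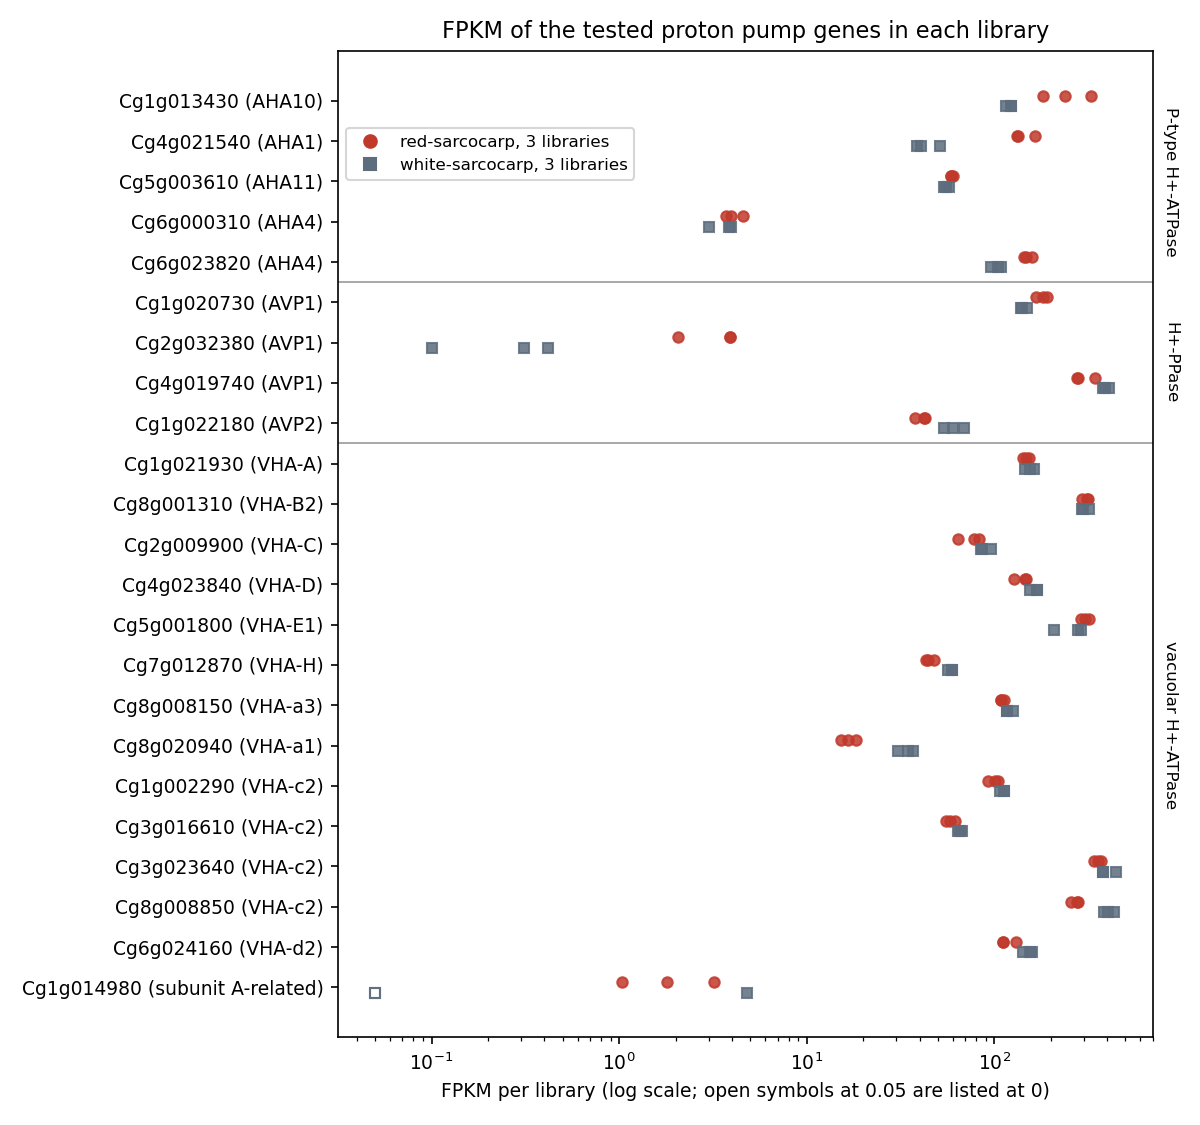
FPKM of the 23 tested proton pump genes in each library, on a log axis. Circles are the 3 red-sarcocarp libraries, squares the 3 white-sarcocarp libraries, and open symbols mark values listed at 0. The 3 red circles of Cg4g021540 lie between 131.31 and 165.65 and the white squares between 38.93 and 51.63, whereas Cg8g001310 overlaps.

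Among the plasma membrane H+-ATPases, Cg4g021540 [AHA1] had the largest fold change. In Arabidopsis, AHA1 is one of the 2 general pumps that energise the plasma membrane in most cells. Its FPKM was 133.93, 131.31 and 165.65 in the red libraries and 40.65, 38.93 and 51.63 in the white libraries. Every red library thus lay above every white one, and the means of 143.6 ± 19.1 and 43.7 ± 6.89 (SD, n = 3) differed 3.28-fold. The log2 fold change was 1.72 (SE 0.14, limma adjusted p = 0.000178).

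Cg1g013430 [AHA10] was the most strongly expressed of the listed pumps of this type in both cultivars. Its FPKM was 238.47, 181.55 and 328.78 in red and 122.83, 122.96 and 114.72 in white. The red libraries were spread widely and the white ones lay close together, without overlap. The means of 249.6 ± 74.2 and 120.2 ± 4.72 (SD, n = 3) differed 2.08-fold, with a log2 fold change of 1.01 (SE 0.20, limma adjusted p = 0.00574). This call was lost when red replicate 1 or any 1 of the white libraries was left out, with limma adjusted p between 0.0198 and 0.0232, while the log2 fold change stayed between 0.79 and 1.22. It was also lost with median centring (limma adjusted p = 0.0102) and without the mean-variance trend (limma adjusted p = 0.0154). The same held with a replicate block (limma adjusted p = 0.0117).

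Cg6g023820 [AHA4] had a smaller and more even difference. It was measured at 144.77, 159.04 and 147.51 FPKM in red and at 104.07, 108.78 and 95.78 in white. The groups did not overlap. Their means were 150.4 ± 7.57 and 102.9 ± 6.58 (SD, n = 3), which is 1.46-fold, and the log2 fold change was 0.55 (SE 0.08, limma adjusted p = 0.00174). The calls of Cg6g023820 and Cg4g021540 held without any single library.

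The other plasma membrane pumps were nearly level or hardly expressed. Cg5g003610 [AHA11] had 58.57, 59.01 and 60.20 FPKM in red and 54.20, 55.01 and 57.38 in white, a log2 fold change of 0.09 (SE 0.07) that did not pass the limma test (adjusted p = 0.286). The second AHA4-like gene, Cg6g000310, lay between 3.02 and 4.57 FPKM over the 6 libraries, and its groups overlapped (log2 fold change 0.18, SE 0.18, limma adjusted p = 0.443). Cg4g024660 [AHA8] ran from 0.49 to 1.35 FPKM, and the AHA9-like Cg1g019930 and a second AHA11-like gene, Cg5g007770, stayed at or below 0.16. In Arabidopsis AHA8 and AHA9 are pumps of pollen and anthers.

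Over the 5 tested plasma membrane pumps, all log2 fold changes were positive, with a median of 0.55. In 4 of them the red libraries lay above the white ones, an arrangement found in 29.4% of all tested genes. In red-sarcocarp pomelo the level of AHA10-like Cg1g013430 came first. Cg6g023820 and Cg4g021540 followed with overlapping values, and Cg5g003610 stood clearly below. In white-sarcocarp pomelo Cg4g021540 was the lowest of these 4 genes, below Cg5g003610 in every library. Red replicate 3, which had the highest seed marker sum, also had the highest FPKM of Cg1g013430 and Cg4g021540. Without it the log2 fold changes were 0.79 for Cg1g013430 (limma adjusted p = 0.00457) and 1.61 for Cg4g021540 (limma adjusted p = 0.000609), and both calls held. Seed markers were higher in the other red libraries as well, and their part in the result was not tested.

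**Figure D2:**
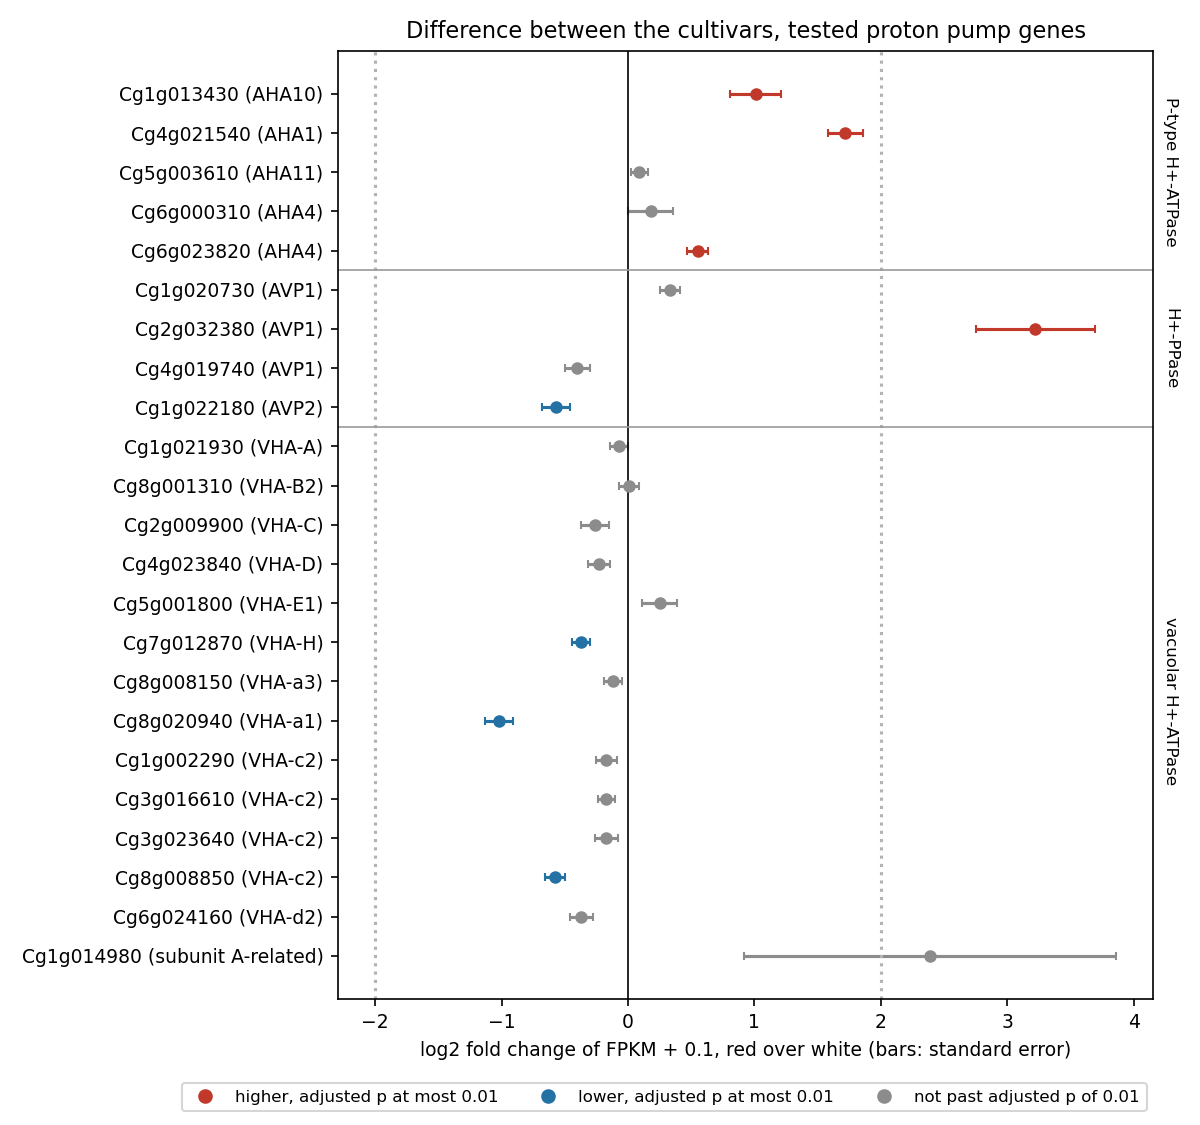
Difference between the cultivars for the 23 tested pump genes. Points are log2 fold changes of FPKM + 0.1, red over white, bars are standard errors, and dotted lines mark the fold change threshold of 2 in size. The 5 plasma membrane pumps lie at or right of 0.09, and 11 of the 14 vacuolar H+-ATPase genes lie left of 0.

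The make-up of the plasma membrane pump transcripts shifted with these differences. Cg4g021540 held 23.1%, 24.5% and 23.4% of the summed FPKM of the 8 genes in the red libraries and 12.4%, 11.8% and 16.0% in the white libraries. The shares did not overlap. The share of Cg5g003610 ran the other way, with 9.87% ± 1.27 in red and 17.0% ± 0.661 in white (SD, n = 3), although its level was nearly equal. Cg1g013430 held between 33.9% and 46.4% in red and between 35.5% and 37.6% in white, so its share overlapped between the cultivars. The sum of the 8 genes was 281.3 FPKM higher in red on average. Cg1g013430 made up 46.0% of that difference, Cg4g021540 35.5% and Cg6g023820 16.9%. The largest part thus came from the AHA10-like gene, whose place in the cell was not measured.

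**Figure D3:**
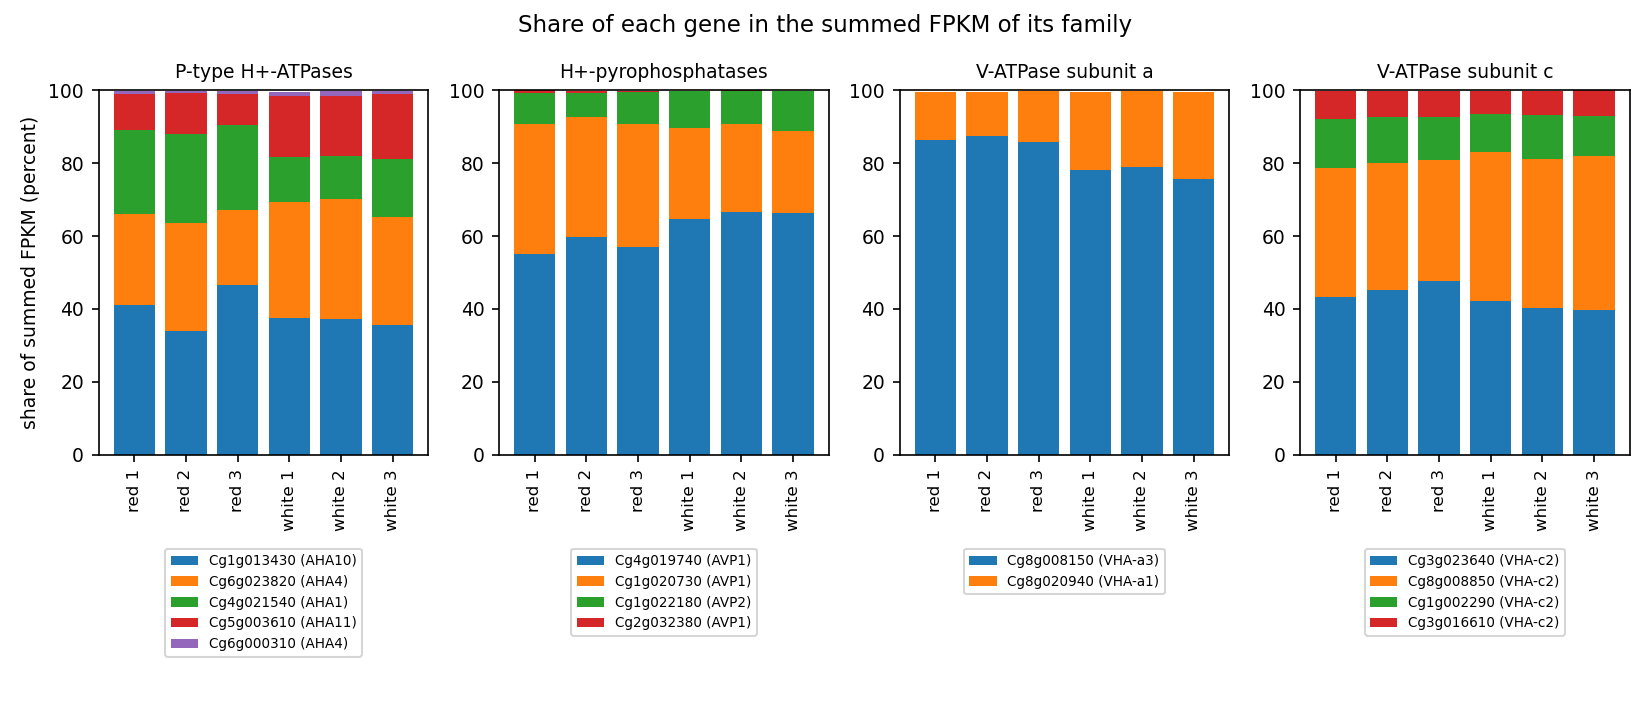
Share of each gene in the summed FPKM of its family, in percent, for each of the 6 libraries. Stacked colours are genes. The AHA1-like Cg4g021540 takes between 23.1% and 24.5% of the plasma membrane pump sum in red and between 11.8% and 16.0% in white, and the AVP1-like Cg1g020730 at least 33.1% of the pyrophosphatase sum in red and at most 25.2% in white.

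The H+-pyrophosphatases changed in both directions. Type I enzymes such as AVP1 of Arabidopsis pump protons into the vacuole, and type II enzymes such as AVP2 are known there from the Golgi. The most abundant gene, Cg4g019740 [AVP1], had 277.53, 345.74 and 279.25 FPKM in red and 380.87, 390.20 and 410.21 in white. All white libraries were higher, but the log2 fold change of -0.40 (SE 0.10) did not pass the limma test (adjusted p = 0.0197). Without red replicate 2 it did (log2 fold change -0.50, limma adjusted p = 0.00576). In the other 15 of 16 alternative fits it did not, with limma adjusted p up to 0.0789 without red replicate 1.

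The other abundant type I gene, Cg1g020730 [AVP1], had the opposite order. Its FPKM was 180.81, 191.86 and 166.15 in red and 148.68, 140.98 and 139.26 in white. The groups did not overlap, and the log2 fold change of 0.33 (SE 0.08) also missed the threshold in limma (adjusted p = 0.0142). Without red replicate 3 it passed (limma adjusted p = 0.00929), as it did with quantile normalization (limma adjusted p = 0.00592). In the other 14 of 16 alternative fits it did not, with limma adjusted p up to 0.0545 without red replicate 1. The FPKM of Cg4g019740 was 1.53, 1.80 and 1.68 times that of Cg1g020730 in the red libraries and 2.56, 2.77 and 2.95 times in the white ones. The balance between the 2 abundant type I genes thus differed between the cultivars in every library, as a description with no test of its own. This ratio was not planned beforehand, and neither gene was called.

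The type II gene Cg1g022180 [AVP2] was lower in red-sarcocarp pomelo. It had 42.67, 37.92 and 42.36 FPKM in red and 60.15, 54.09 and 69.03 in white, with no overlap. The means were 41.0 ± 2.66 and 61.1 ± 7.51 (SD, n = 3), 1.49-fold higher in white, and the log2 fold change was -0.57 (SE 0.11, limma adjusted p = 0.00516). The call was lost without any 1 of the red libraries, white replicate 1 or white replicate 3 (limma adjusted p from 0.0118 to 0.0195), and without the mean-variance trend (limma adjusted p = 0.0141).

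The weakly expressed AVP1-like gene Cg2g032380 was the only pump past both thresholds. Its FPKM was 3.88, 3.89 and 2.05 in red and 0.10, 0.42 and 0.31 in white. All red libraries lay above the white ones, and the means of 3.27 ± 1.06 and 0.277 ± 0.163 (SD, n = 3) differed 11.8-fold. The log2 fold change was 3.22 (SE 0.47, limma adjusted p = 0.00174). With a pseudocount of 1 it was 1.72, below the fold change threshold, and without red replicate 1 the adjusted p was 0.0115. Even in red this gene held no more than 0.768% of the pyrophosphatase sum. A gene with a neighbouring number, Cg2g032390, was listed at 0 in all libraries, beside a deposited mean normalized count of 17.3.

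The vacuolar H+-ATPase genes leaned towards white-sarcocarp pomelo. Of the 19 genes, 14 were tested, 11 had a negative and 3 a positive log2 fold change, and the median was -0.17. The white libraries lay above the red ones in 10 genes, an arrangement found in 28.3% of all tested genes. The 3 calls (21.4% of the 14) were all lower in red. This share lies below the 27.5% called over all tested genes, of which 14.1% were lower. The summed FPKM of the 4 chloroplast-rich tissue markers was also higher in every white library than in any red one, although 2 of the 4 overlapped singly. Their part in these differences was not tested.

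Among the pumps taken by name, 2 of the 3 calls were subunits of the membrane sector V0, beside 27.5% called over all tested genes. With Cg3g010350 [VHA-F], taken by its Arabidopsis hit, the V1 sector had 2 calls as well. The calls thus do not set the sectors apart. Subunit a forms the proton path at the side of the ring, and in Arabidopsis VHA-a1 sits in the trans-Golgi network, whereas VHA-a2 and VHA-a3 sit in the vacuolar membrane. Cg8g020940 [VHA-a1] had 16.67, 15.14 and 18.38 FPKM in red and 34.64, 30.68 and 36.74 in white. The groups were well apart, with means of 16.7 ± 1.62 and 34.0 ± 3.08 (SD, n = 3), 2.03-fold higher in white. The log2 fold change was -1.02 (SE 0.11, limma adjusted p = 0.000526).

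The more abundant subunit a gene, Cg8g008150 [VHA-a3], was close to level. It had 108.26, 108.70 and 112.83 FPKM in red and 126.53, 116.19 and 116.68 in white (log2 fold change -0.12, SE 0.07, limma adjusted p = 0.19). The VHA-a1-like gene held 13.2% ± 0.904 of the subunit a sum in red and 22.0% ± 1.58 in white (SD, n = 3). Another VHA-a3-like gene, Cg3g023470, stayed between 0.23 and 0.74 FPKM.

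Subunit c forms the rotating ring that carries the protons, and 4 genes shared the same best hit, VHA-c2. Cg8g008850 was the one that passed the test. Its FPKM was 279.28, 277.28 and 257.26 in red and 432.87, 384.71 and 402.84 in white, without overlap. The means of 271.3 ± 12.2 and 406.8 ± 24.3 (SD, n = 3) put it 1.50-fold higher in white, with a log2 fold change of -0.58 (SE 0.08, limma adjusted p = 0.00139). The calls of Cg8g008850 and Cg8g020940 held without any single library.

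The other subunit c genes had smaller differences of the same sign. Cg3g023640 had 339.37, 358.31 and 368.77 FPKM in red and 445.69, 378.47 and 380.90 in white. Its log2 fold change was -0.17 (SE 0.09, limma adjusted p = 0.165). Cg1g002290 ranged from 92.23 to 104.36 in red and from 107.55 to 113.27 in white, and Cg3g016610 from 55.47 to 61.97 and from 63.65 to 66.95. Both had a log2 fold change of -0.17 and did not pass (limma adjusted p = 0.11 and 0.106). The ring's most abundant transcript was from Cg3g023640 in all red libraries, and Cg8g008850 held 33.2% to 35.6% of the subunit c sum in red and 40.9% to 42.1% in white. As the 4 genes resemble 1 Arabidopsis gene, reads may be split between them, and their sum is less exposed to such a split. It lay between 773.73 and 794.23 FPKM in red and between 940.1 and 1058.45 in white.

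Subunit d joins the ring to the central stalk. Cg6g024160 [VHA-d2] had 111.88, 130.76 and 110.82 FPKM in red and 158.90, 141.99 and 155.84 in white. All white libraries were higher, and the log2 fold change of -0.37 (SE 0.09) missed the threshold in limma (adjusted p = 0.0154). Without red replicate 2 it passed, at -0.45 (limma adjusted p = 0.00996), as it did with median centring, at -0.40 (limma adjusted p = 0.00835). In the other 14 of 16 alternative fits it did not, with limma adjusted p up to 0.0631 without red replicate 1.

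In the V1 sector, the subunits that bind ATP were level. Cg1g021930 [VHA-A], the catalytic subunit A, had 141.91, 152.39 and 146.63 FPKM in red and 163.31, 155.39 and 145.95 in white. Cg8g001310 [VHA-B2], the nucleotide-binding subunit B, had 291.82, 311.76 and 316.29 in red and 320.39, 298.06 and 293.73 in white. The groups of both overlapped. Their log2 fold changes were -0.07 (SE 0.07, limma adjusted p = 0.445) and 0.01 (SE 0.08, limma adjusted p = 0.908), and the sign of the second turned with the scaling, to -0.01 as TPM and to -0.02 with median centring.

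The stalk subunits were mixed. Among the pumps taken by name, Cg7g012870 [VHA-H], whose yeast counterpart holds free V1 inactive, was the only V1 gene called. A V1 gene taken by its Arabidopsis hit, Cg3g010350 [VHA-F], was also called lower and is given further below. Cg7g012870 was weakly supported. Its FPKM was 44.35, 47.79 and 43.32 in red and 59.53, 59.68 and 56.29 in white, with means of 45.2 ± 2.34 and 58.5 ± 1.92 (SD, n = 3). The groups did not overlap, and the log2 fold change was -0.37 (SE 0.07, limma adjusted p = 0.0064). Leaving out any 1 of the 6 libraries ended this call, with limma adjusted p from 0.0107 to 0.0309. So did a fit without the mean-variance trend (limma adjusted p = 0.0172) or with a replicate block (limma adjusted p = 0.0182).

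Cg2g009900, similar to the Arabidopsis C subunit gene DET3, had 63.94, 82.79 and 78.26 FPKM in red and 96.55, 85.05 and 86.06 in white. Cg4g023840 [VHA-D], part of the central rotor, had 126.96, 148.04 and 146.35 in red and 168.39, 155.44 and 169.82 in white. White was higher throughout for both, but neither passed (log2 fold changes -0.26, SE 0.11, and -0.23, SE 0.09, limma adjusted p = 0.105 and 0.0672). Cg5g001800 [VHA-E1] of the peripheral stalk was the one gene of the complex with every red library above the white ones, at 291.07, 319.26 and 303.64 against 290.95, 278.58 and 206.94. It did not pass either (log2 fold change 0.25, SE 0.14, limma adjusted p = 0.171).

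Several V1 genes could not be measured as FPKM. The E1-like genes Cg5g001790 and Cg6g010910, the G2-like Cg3g020560 and the H-like Cg7g012900 were listed at 0 in all 6 libraries. Their deposited mean normalized counts over the 6 libraries were 1738, 0, 0.176 and 61.9. Those with a count above 0 had reads although their FPKM was 0. The number of Cg5g001790 is next to that of Cg5g001800, whose mean normalized count was 3133, so the E1 level may be incomplete. The H level may be so to a lesser degree, as Cg7g012900 had 61.9 beside 2023 for Cg7g012870. Cg1g014980, annotated only as related to the catalytic subunit, was at 1.04, 1.79 and 3.20 FPKM in red and at 0, 0 and 4.79 in white. The mean normalized count of this gene was only 9.48, and its mean FPKM was 2.01 in red and 1.60 in white. With a pseudocount of 1 its log2 fold change was 0.68, and with 0.01 it was 4.54. Its log2 fold change of 2.39 (SE 1.47, limma adjusted p = 0.222) did not pass, but without white replicate 3 it was 4.27 (limma adjusted p = 0.00357), against white libraries that are both listed at 0.

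A further 3 V1 genes carry other names and were taken by their Arabidopsis hits. Cg3g010350 [VHA-F] of the central stalk was lower in red, at 45.93, 42.36 and 44.92 FPKM against 66.77, 71.67 and 68.38 (log2 fold change -0.63, SE 0.07, limma adjusted p = 0.000651). The other F-like gene, Cg5g034650, had a log2 fold change of -0.26 (SE 0.13, limma adjusted p = 0.141). Cg6g002040 [VHA-G1] was the most abundant V1 gene by mean FPKM and overlapped between the cultivars, at 470.33, 431.04 and 395.57 in red and 413.19, 503.96 and 311.79 in white (log2 fold change 0.10, SE 0.17, limma adjusted p = 0.658).

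**Figure D4:**
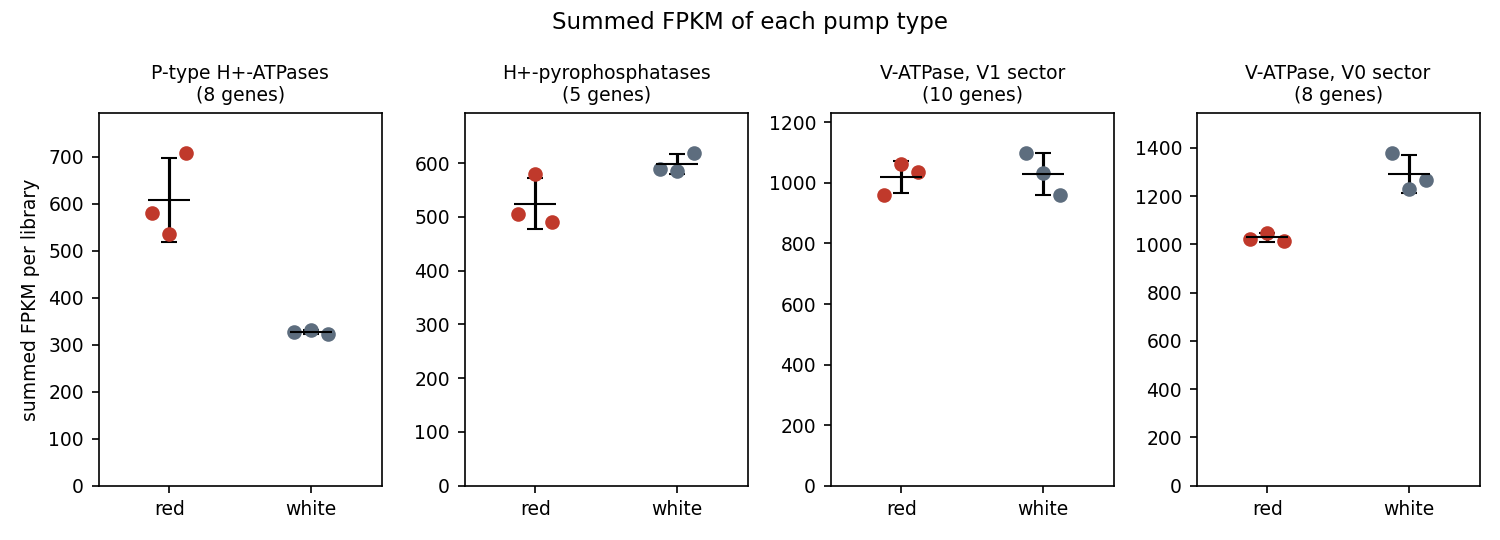
Summed FPKM of each pump type in each library, with points for libraries, a horizontal dash for the mean and error bars for the SD of the 3 libraries of a cultivar. The plasma membrane pumps sum to between 535.3 and 708.1 in red and between 323.1 and 330.2 in white, and the V0 sums lie between 1016.1 and 1049.2 in red and between 1229.2 and 1379.1 in white. The V1 sums leave out the V1 genes taken by their Arabidopsis hits.

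The sums over each pump type show the same leaning on the FPKM scale, as a description with no test. The 8 plasma membrane pumps together had 580.63, 535.32 and 708.1 FPKM in red and 326.91, 330.23 and 323.05 in white. The means of 608.0 ± 89.6 and 326.7 ± 3.59 (SD, n = 3) differed 1.86-fold, and between 1.71-fold and 1.97-fold when 1 library was left out. The 19 vacuolar H+-ATPase genes summed to 1983.26, 2113.04 and 2053.75 in red and 2478.2, 2261.39 and 2230.82 in white, and the mean in white was 1.13-fold that in red.

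Among the pumps taken by name, the V0 sums were apart and the V1 sums were not. The 8 V0 genes summed to 1022.17, 1049.22 and 1016.06 FPKM in red and 1379.08, 1229.19 and 1267.24 in white, 1.26-fold higher in white and without overlap. Cg8g008850 made up 51.6% of the mean difference of 262.7 FPKM, and Cg3g023640 17.6%. The V1 sums of 1018.9 ± 52.8 in red and 1030.0 ± 70.2 in white (SD, n = 3) overlapped. These V1 sums leave out the V1 genes taken by their Arabidopsis hits, with the abundant Cg6g002040 and the lower Cg3g010350 among them. They also count Cg5g001790 at its listed 0, so they are not those of the whole sector. The pyrophosphatases summed to 504.89, 579.41 and 489.81 in red and 589.8, 585.69 and 618.81 in white, 1.14-fold higher in white. The plasma membrane pump sum was 0.293, 0.253 and 0.345 of the vacuolar H+-ATPase sum in the red libraries and 0.132, 0.146 and 0.145 in the white libraries. The vacuolar sum also lacks the V1 genes taken by their hits. The plasma membrane pump sum lacks Cg1g013420 and includes the AHA10-like Cg1g013430. As subunits of a complex were set against single-chain pumps, this is no ratio of pump numbers.

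Among cation/H+ exchangers and anion or organic acid transporters, lower calls outnumbered higher ones in red-sarcocarp pomelo. The list held 23 genes with Arabidopsis hits among vacuolar or endosomal cation/H+ exchangers and anion or organic acid transporters. Of the 16 tested, 8 were lower and 3 higher (68.8%), and their median log2 fold change was -0.83, beside 27.5% called and a median of 0.02 over all tested genes. Past both thresholds were 1 higher and 3 lower gene.

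Among the exchangers, Cg2g026390 [CAX2], similar to a calcium and manganese exchanger, was near 0 in red. It had 0.13, 0.08 and 0 FPKM in red and 10.94, 7.12 and 9.88 in white (log2 fold change -5.85, SE 0.39, limma adjusted p = 8.9e-05). The following exchangers were chosen after their values were seen. Cg6g006900 [CAX1] had 26.13, 20.85 and 27.93 FPKM in red and 64.34, 63.95 and 59.15 in white, 2.50-fold higher in white (log2 fold change -1.33, SE 0.12, limma adjusted p = 0.000256). Cg9g003570 [NHX2], a K+ and Na+ exchanger of the vacuole in Arabidopsis, had 11.17, 10.15 and 13.77 in red and 26.41, 29.18 and 27.49 in white (log2 fold change -1.25, SE 0.13, limma adjusted p = 0.00042). The endosomal type Cg2g046640 [NHX6] was the one exchanger called higher (log2 fold change 0.48, SE 0.09, limma adjusted p = 0.00498). Its call was lost without red replicate 1 or 2 or white replicate 1 or 3 (limma adjusted p from 0.0173 to 0.0207).

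Of the anion transporters, 2 CLC genes moved in opposite directions. Cg2g011090 [CLC-A], a nitrate/H+ exchanger of the vacuole in Arabidopsis, had 5.02, 4.62 and 4.22 FPKM in red and 32.86, 26.12 and 26.59 in white (log2 fold change -2.60, SE 0.13, limma adjusted p = 3.04e-05). Cg4g005670 [CLC-C] had 25.09, 25.95 and 20.30 in red and 5.84, 4.94 and 6.23 in white (log2 fold change 2.05, SE 0.14, limma adjusted p = 0.000103). Its log2 fold change lay below the threshold of 2 with a pseudocount of 0.5 (1.97) or 1 (1.89), without white replicate 2 (1.95) and without red replicate 2 (1.98).

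CgUng003560, similar to the malate channel ALMT4, had 2.87, 2.08 and 2.39 FPKM in white and was at a listed 0 in red (limma adjusted p = 0.000302). The tonoplast dicarboxylate transporter Cg2g046060 [TDT], which carries malate and citrate across the vacuolar membrane in Arabidopsis, was the most abundant gene of both lists. It was named after its values were seen, at 212.41, 196.53 and 238.09 FPKM in red and 458.61, 406.55 and 363.04 in white. White was 1.90-fold higher (log2 fold change -0.92, SE 0.11, limma adjusted p = 0.000907).

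**Figure D5:**
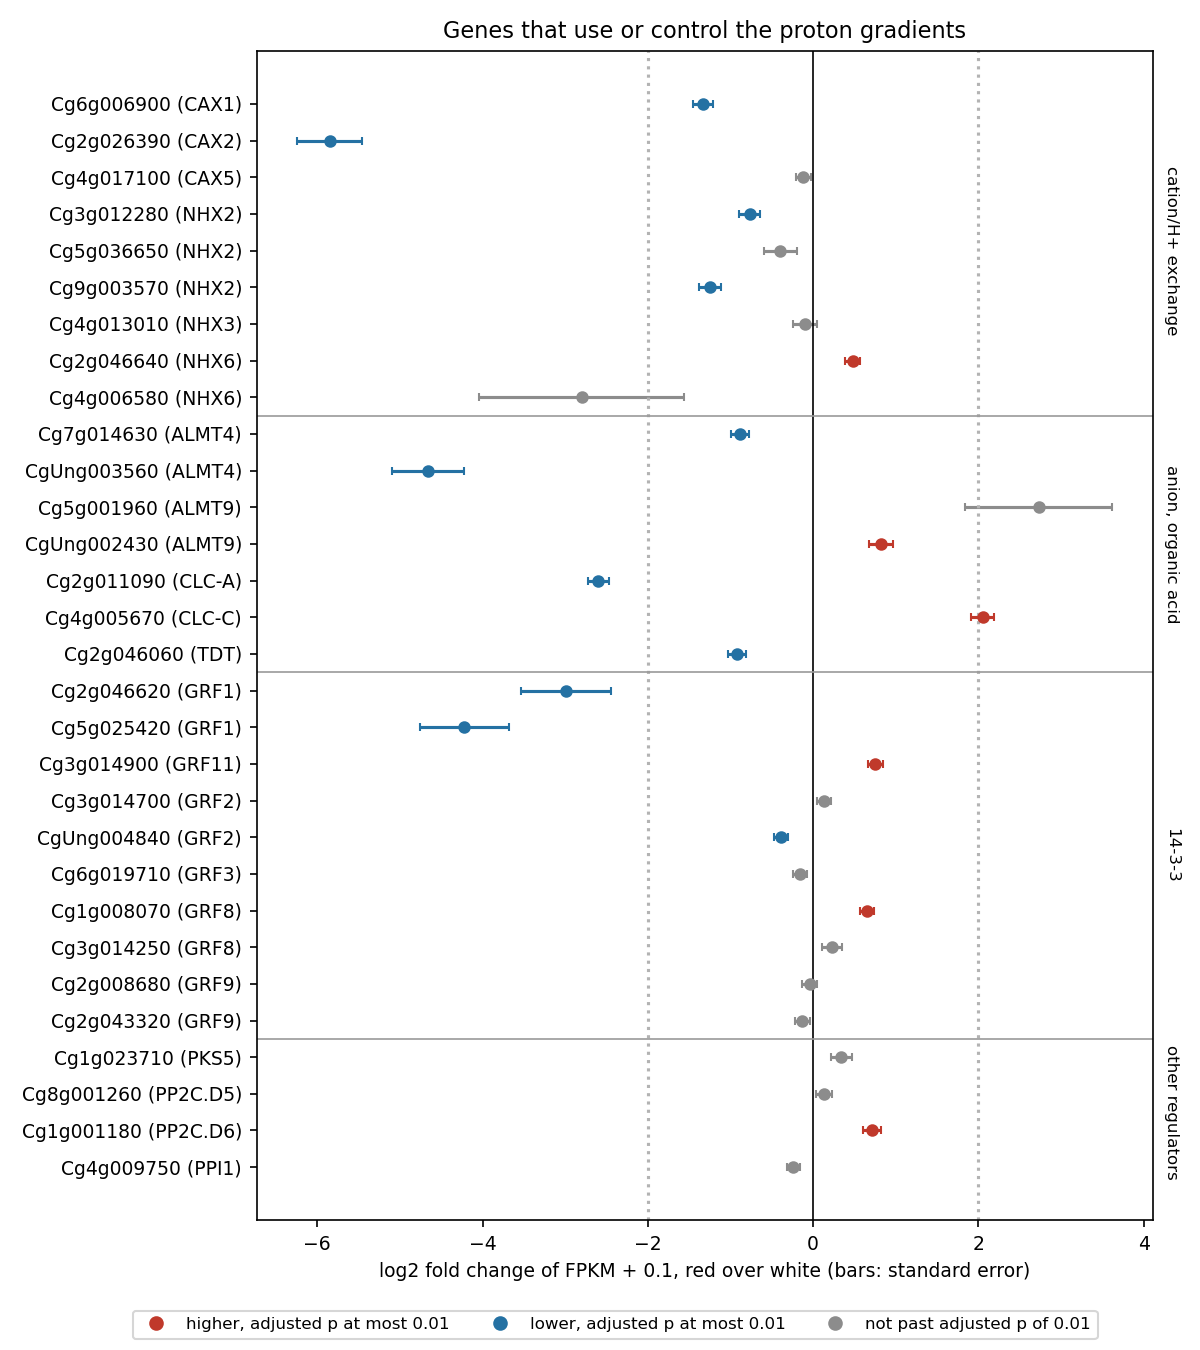
Log2 fold changes of FPKM + 0.1, red over white, with standard errors. Genes are the tested cation/H+ exchangers, anion or organic acid transporters, 14-3-3 proteins and other regulators of the plasma membrane pump. Dotted lines mark the threshold of 2 in size. Cg2g026390 lies furthest to the left at -5.85, and Cg4g005670 at 2.05.

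Proteins that switch the plasma membrane pump were examined beside it. 14-3-3 proteins bind the phosphorylated tail of the pump and keep it active. Of 21 genes with such a name by their hits, 10 were tested, 2 were higher and 3 lower (50.0%), beside 27.5% of all tested genes. Cg3g014900 [GRF11] had 548.64, 485.62 and 507.15 FPKM in red and 326.83, 279.84 and 307.78 in white (log2 fold change 0.75, SE 0.09, limma adjusted p = 0.000827). Cg1g008070 [GRF8], an abundant gene as well, was also higher (log2 fold change 0.65, SE 0.08, limma adjusted p = 0.00094). The GRF2-like CgUng004840 was lower, at 97.55, 93.85 and 90.75 FPKM in red and 124.6, 115.36 and 129.23 in white (log2 fold change -0.39, SE 0.08, limma adjusted p = 0.00565). Its call was lost without any 1 of the libraries (limma adjusted p from 0.0104 to 0.0213). These genes were chosen with their values in view.

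The 14-3-3 genes past both thresholds were weakly expressed GRF1-like copies. Cg2g046620 had 0.39, 2.57 and 1.02 FPKM in red and 8.85, 9.24 and 8.70 in white (log2 fold change -2.99, SE 0.55, limma adjusted p = 0.00454). Its call was lost without red replicate 3 or any 1 of the white libraries (limma adjusted p from 0.014 to 0.0193). Cg5g025420 was listed at 0 in red and had 1.21, 2.84 and 1.57 in white (limma adjusted p = 0.000975). The deposited mean normalized count of this gene was only 3.91. Of the 4 other regulators tested, 1 was called (25.0%), beside 27.5% of all tested genes. It was Cg1g001180 [PP2C.D6], from a group of phosphatases that switch the pump off in Arabidopsis. Its FPKM was 101.17, 113.91 and 104.61 in red and 74.19, 63.32 and 58.43 in white, with the red libraries all above the white ones. The log2 fold change was 0.71 (SE 0.11, limma adjusted p = 0.00185). Another phosphatase of this group, Cg8g001260 [PP2C.D5], was named after its values were seen. Its groups overlapped (log2 fold change 0.13, SE 0.10, limma adjusted p = 0.314).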

How the data were processed

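RNA-seq of ripe pulp covered 3 libraries per cultivar, grouped by their labels. According to the methods, the authors trimmed reads with Trimmomatic and aligned them with STAR (2.7.1a, 2-pass mode) against version v1.0 of the C. maxima genome. The deposited FPKM per gene and library came from RSEM (1.3.1), rounded to 2 decimals. The authors also counted reads with featureCounts (2.0.1). Their mean normalized count over the 6 libraries is quoted for several genes with an FPKM listed at 0. Their other comparison columns (fold changes, test statistics and p-values from DESeq2) and their list of differential genes were not used. There were 0 unused columns of single libraries. The library kit does not mark strand.

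Genes with a mean FPKM of at least 1 in a cultivar were tested with limma 3.58.1 (R 4.3.3) on log2(FPKM + 0.1), with cultivar as the only term and a mean-variance trend. The methods give the expression filter as lower than 1, read here as at least 1. P-values were adjusted by Benjamini-Hochberg over all 14158 genes. A call needed an adjusted p of at most 0.01, and the study's thresholds also a log2 fold change of 2 in size. On simulated data over 14158 genes, the adjusted p recovered 1.52% of changes of 0.5, 46.3% of changes of 1 and 86.6% of changes of 3 (log2), and called 0 of 13958 unchanged genes. Only 200 genes were changed in this simulation, so these shares do not carry over to the data, where far more genes were called. Tables were summarised in Python 3.11.15.

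The pump genes, the Arabidopsis-based lists and the tests were chosen with earlier results of these data known. Values were to be given for pumps past the adjusted p, the strongest gene of each subunit or pump type, and listed genes past both thresholds or otherwise the 2 with the largest change. Values of further pumps were added after they were seen, and listed genes outside the rule are marked. Alternatives were other pseudocounts, filters, scalings and moderation, a replicate block and leaving out each library. The same settings were applied to named genes of the other lists, a choice added after seeing the data. Gene positions and sequences were not used here.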

Additional observations from a re-analysis of the deposited data

How the results depend on the processing

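Of the 8 pumps called, 4 kept their call under all 16 alternatives (Cg4g021540, Cg6g023820, Cg8g008850 and Cg8g020940), and 0 changed sign. Of the 15 pumps tested and not called, 11 stayed so throughout, and 1 of these changed sign, Cg8g001310, at -0.01 as TPM and -0.02 with median centring, and between -0.01 and 0.05 without single libraries. The number past both thresholds, 1, became 0 with a pseudocount of 1 and ran from 0 (without red replicate 1) to 2 (without white replicate 3). The number past the adjusted p, 8, became 5 without a trend and ran from 4 (without red replicate 1; 5 without white replicate 1) to 8 without single libraries. Its 4 higher genes ran from 2 (without red replicate 1) to 5, and its 4 lower genes from 2 (without red replicate 1 or 3 or white replicate 1 or 3) to 4, with 2 without a trend. The 3 transporters called higher ran from 1 (without red replicate 1 or 2 or white replicate 1 or 3) to 3. For these counts the cause was not tested. Fewer samples remain in each fit without a library, and over all genes the calls then fell from 3897 to as few as 2074 (without red replicate 1). Calls past both thresholds over all genes fell from 957 to 530 with a pseudocount of 1. The ratios of the pump sums stayed within the spread of the libraries in all 8 alternatives. Scalings moved the median of all genes by at most 0.03 in size.

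Replicate numbers are shared by the cultivars but do not pair the libraries: deviations of libraries with the same number correlated at 0, 0.031 and -0.045 across genes. With the replicate block 6 pumps were called, and 1 transporter higher in place of 3. FPKM gives no read depth, so no counting interval was computed.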
